A study of Drosophila melanogaster with 10 samples.

Results

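Flies that have carried gut tumors and are then returned to the temperature at which the tumor transgene is off were followed here over a late interval of tumor shutdown, the 6 days between day 26 and day 32 after the start of tumor induction. RNA-seq libraries of thoraces were compared at day 32, after 18 days at 18 °C, and at day 26, after 12 days at 18 °C. Both libraries came from Esg>yki[S3A] flies, and all genes were compared, 17506 genes with a known exon length of 17562 in the files. The series holds 10 libraries, 7 of Esg>yki[S3A] thoraces (days 2, 8, 14, 20, 26, 32 and 38) and 3 of control thoraces (days 2, 14 and 38). All flies were adult males that developed at 18 °C and were moved to 29 °C as adults, and flies sampled after day 14 had been moved back to 18 °C at day 14. Esg>yki[S3A] flies carried the gut progenitor driver esg-Gal4 with tub-Gal80ts, UAS-GFP and UAS-yki-act, an active form of the growth regulator Yorkie. Control flies, which were not sampled at day 26 or day 32, carried the driver, tub-Gal80ts and UAS-GFP with no yki transgene. Gal80ts blocks Gal4 at 18 °C and releases it at 29 °C. The driver acts in progenitors of the gut and not in muscle, so the thorax is read here as a remote tissue.

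Besides the muscles of flight and walking, a dissected fly thorax yields RNA of fat body, trachea, nerve cord, blood cells and the organs that pass through it. The fat body serves the fly as both liver and energy store. It secretes storage proteins, lipoproteins and most of the antimicrobial peptides found in the blood, and its secretory genes respond to feeding and to infection. Bacteria are sensed by peptidoglycan recognition proteins, which act through the Imd and Toll pathways to induce antimicrobial peptide genes. In RNA from a whole thorax, fewer cells of a type cannot be told apart from less RNA of a gene per cell.

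Each library was made from 8 to 10 thoraces and each condition is 1 library, although the design text of the series speaks of replicates. No difference below therefore has a replicate check, and no p-value is given. Ratios carry 95% exact Clopper-Pearson intervals of the reads, which cover counting error only. The day 32 library held 38208954 reads on genes, against 28665007 in the day 26 library, and the other libraries held 14615109 to 37496630. Levels are given in RPKM, reads scaled to the exon length of the gene and to the total reads on genes of the library. Genes of the mitochondrial genome took 24.3% of the reads at day 32 and 29.5% at day 26. The labels were checked against tissue genes. The myosin light chain gene Mlc2 stood at 2294 RPKM at day 32 and 2579 RPKM at day 26, as fits a tissue made of muscle. The X chromosome dosage compensation RNA lncRNA:roX1, which is made in males, stood at 551.1 RPKM at day 32 and 625.2 RPKM at day 26, while the 6 genes of a list of female yolk and eggshell proteins summed to 1.08 and 1.52 RPKM. Reads of the yki transgene cannot be separated from those of yki itself, and yki stood at 5.22 RPKM at day 32 and 6.36 RPKM at day 26.

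The transcriptomes at day 32 and day 26 were close. Of 8394 genes that reached 2 RPKM in either library, 7707 (91.8%) were within 1.5-fold of each other. A gene was counted as higher or lower when it passed 2-fold and reached 2 RPKM in the library where it was higher. At day 32, 73 genes were higher (0.87% of the genes compared) and 127 were lower (1.51%), or 2.38% in either direction. The neighboring steps, which share a library with this one and so are not independent of it, held more: 526 genes (6.17%) at day 26 over day 20 and 655 genes (7.67%) at day 38 over day 32. The first step of the shutdown phase, day 20 over day 14, held 1626 genes (19.2%). The interquartile range of the log2 ratios was 0.33 for day 32 over day 26, against 0.80, 0.54 and 0.62 for day 20 over day 14, day 26 over day 20 and day 38 over day 32. Temperature was 18 °C on both sides of every step but the one from day 14.

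The split between higher and lower genes depended on the scaling. With the library total as the divisor, the median log2 ratio of the 8394 genes was 0.12. It was 0.03 with edgeR's TMM factors, 0.01 with DESeq2's size factors and 0.00 when nuclear protein-coding reads were the divisor, and the counts of higher and lower genes were then 51 and 142, 49 and 147, and 45 and 149. All ratios below use the library total, and a list is read against that median of 0.12. Most of the lower genes were not protein-coding. Among 7867 nuclear protein-coding genes, 64 were higher and 46 lower, 1.4% in either direction. Among 303 genes for small RNAs, mitochondrial transfer RNAs included, 4 were higher and 76 lower. The plot of ratio against level shows the groups that stood off the center.

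**Figure D1:**
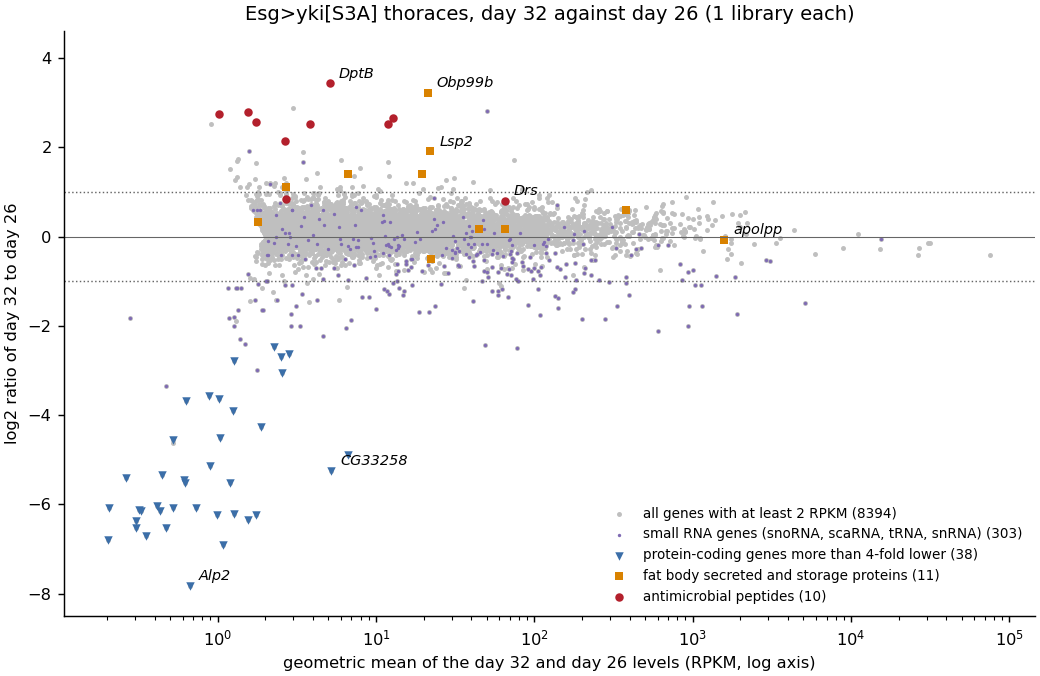
Each point is a gene with at least 2 RPKM in either library, at the geometric mean of its day 32 and day 26 levels (log axis) and at its log2 ratio of day 32 to day 26, with dotted lines at 2-fold. Most of the 8394 genes lie between the lines, 8 antimicrobial peptide genes and 5 fat body genes lie above, and 76 of 303 small RNA genes and all 38 protein-coding genes picked as more than 4-fold lower lie below, with 7 genes named.

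Several fat body genes that encode secreted and storage proteins were higher at day 32. Of a list of 14 such genes, 13 had more than 3 reads, 11 had at least 2 RPKM, 5 of these 11 were higher past 2-fold and 0 were lower, and the list's median log2 ratio was 0.59 (0.51 with TMM factors). Obp99b, which encodes an odorant-binding protein made in fat body, had the second largest ratio of any protein-coding gene with at least 10 RPKM. It lies at 29716254 to 29716896 on the reverse strand of chromosome arm 3R (Release 6). Obp99b stood at 64.9 RPKM at day 32, against 6.93 RPKM at day 26 (1472 and 118 reads), which is 9.36-fold higher (log2 3.23, interval 2.96 to 3.51). Across the Esg>yki[S3A] libraries at days 2, 8, 14, 20, 26, 32 and 38 it stood at 251.8, 11.01, 2.29, 2.58, 6.93, 64.9 and 69.9 RPKM. Control thoraces had 237.3, 1641 and 261.5 RPKM at days 2, 14 and 38. Its main step within the shutdown phase thus lay between days 26 and 32, and the day 32 and day 38 levels were both under every control level.

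Lsp2, which encodes a larval serum protein that stores amino acids, stood at 42.7 RPKM at day 32, against 11.4 RPKM at day 26 (4043 and 808 reads, 3.75-fold, log2 1.91, interval 1.80 to 2.02). In the Esg>yki[S3A] libraries at days 2, 8, 14, 20, 26, 32 and 38 it read 70.2, 0.172, 0.0639, 4.03, 11.4, 42.7 and 35.3 RPKM. The level was lowest at day 14 and higher in each library to day 32. The control libraries at days 2, 14 and 38 held 5.91, 59.0 and 0.828 RPKM. The day 32 value was thus below the day 14 control and above the day 2 and day 38 controls. Of the controls, only that of day 38 was sampled after the move back to the lower temperature. Lsp1beta, a related storage protein gene, had 3.94 RPKM at day 32, against 1.83 RPKM at day 26 (log2 1.11).

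The female-biased satiety signal gene fit stood at 31.9 RPKM at day 32, against 12.1 RPKM at day 26 (log2 1.40, interval 1.16 to 1.65), and the alpha-glucosidase gene tobi, a target of insulin and adipokinetic hormone, at 10.9 RPKM, against 4.10 RPKM (log2 1.41, interval 1.20 to 1.61). Both were lowest at day 14, at 0.596 RPKM for fit and 0.572 RPKM for tobi, and both had their highest level of the shutdown phase at day 32 or day 38. The gene takeout (to), which links feeding to the clock, was among the most abundant of the list, with 464.5 RPKM at day 32 and 308.8 RPKM at day 26 (log2 0.59). Its level had been 7.02 RPKM at day 14 and 65.8 RPKM at day 20. Exons of Lsp2, tobi and fit overlap exons of another gene on the opposite strand, and whether reads were counted by strand is not given in the sources used here.

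The lipoprotein genes did not share this difference. apolpp, the precursor of the main lipid carrier of the blood, stood at 1540 RPKM at day 32 and 1622 RPKM at day 26 (log2 -0.07), and Apoltp, a lipid transfer particle gene, at 69.4 and 62.0 RPKM (log2 0.16). Obp44a, another odorant-binding protein gene of the list, had 18.7 RPKM at day 32, against 26.7 RPKM at day 26 (log2 -0.51). The general fat body markers, a list of 8 that shares members with the one above, had 3 genes higher and a median of 0.22. Their summed level was 2044 RPKM at day 32 and 1971 RPKM at day 26. Fatty acid synthesis (11 genes, median 0.20), lipolysis and beta-oxidation (15 genes, 0.18) and amino acid metabolism (16 genes, 0.18) had 0 genes past 2-fold in either direction. The 11 genes of the first list include Mal-A1 (log2 0.35), a maltase gene that the digestive enzyme list also holds. Among members that reached 2 RPKM, the largest difference in each list was that of ACC, which makes the building block of fatty acids, at 115.8 RPKM at day 32 and 89.01 RPKM at day 26 (log2 0.38), that of the lipid droplet protein gene Lsd-2, at 22.6 and 17.5 RPKM (log2 0.37), and that of hgo, an enzyme gene of tyrosine breakdown, at 90.1 and 64.6 RPKM (log2 0.48). Jhe, which encodes an enzyme that breaks down juvenile hormone, stood at 6.62 RPKM at day 32 and 1.79 RPKM at day 26 (3.69-fold, 531 and 108 reads). It was named after its values were seen.

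Antimicrobial peptide genes had the highest ratios of any list. Of 14 genes, 13 had more than 3 reads and all of these 13 had a ratio above 0, with a median log2 ratio of 2.52 (2.44 with TMM factors). Of the 10 with at least 2 RPKM, 8 were higher past 2-fold and 0 were lower. Among these 8, DptA, DptB, AttA, AttB, CecA1 and CecA2 reached 2 RPKM only at day 32, so the minimum level favored this count. AttC and Mtk reached it in both libraries. The 14 genes summed to 194 RPKM at day 32 and 67.5 RPKM at day 26. In the Esg>yki[S3A] libraries at days 2, 8, 14, 20, 26, 32 and 38 the sum was 36.9, 62.9, 419, 3101, 67.5, 194 and 45.3 RPKM. The control sums at days 2, 14 and 38 were 638, 22.3 and 35.1 RPKM. The day 26 library thus lay between higher values on both sides, and the day 32 sum was below those of days 14 and 20 and above that of day 38.

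DptB, which encodes a diptericin active against Gram-negative bacteria, had the largest ratio of any gene with at least 10 RPKM. It stood at 16.8 RPKM at day 32, against 1.55 RPKM at day 26 (288 and 20 reads, 10.8-fold, log2 3.43, interval 2.78 to 4.17). At days 2, 8, 14, 20, 26, 32 and 38 it had 1.31, 15.1, 61.2, 656.2, 1.55, 16.8 and 2.29 RPKM, so that the day 32 level was close to that of day 8. Its neighbor DptA had 5.54 RPKM at day 32, against 1.27 RPKM at day 26 (log2 2.13). DptA had held 1203 RPKM at day 20 and was the most abundant gene of the list in that library.

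AttC, an attacin gene, stood at 32.4 RPKM at day 32, against 5.12 RPKM at day 26 (1115 and 132 reads, log2 2.66, interval 2.40 to 2.94). Mtk, which encodes the antifungal and antibacterial peptide metchnikowin, had 28.3 RPKM, against 4.95 RPKM (290 and 38 reads, log2 2.52, interval 2.03 to 3.05). AttC and Mtk followed the same order of libraries at 18 °C, highest at day 20 (473.9 and 250.3 RPKM), then day 32, then day 38 (6.538 and 5.87 RPKM) and lowest at day 26. Ratios of AttA (log2 2.52), AttB (2.79), CecA1 (2.56) and CecA2 (2.76) lay in the same range at lower levels, up to 9.11 RPKM at day 32 for AttA. AttA and AttB, CecA1 and CecA2, and the 2 diptericin genes are near copies of each other, so reads may have been divided between them in a way that is not given in the sources used here. Exons of DptB and AttC also overlap a gene on the opposite strand.

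Drs, which encodes the antifungal peptide drosomycin and is the main readout of the Toll pathway, differed less. It had 85.6 RPKM at day 32, against 49.1 RPKM at day 26 (1.74-fold, log2 0.80), and was the most abundant gene of the list in both libraries. The Bomanin and Daisho genes, which encode short peptides also made through Toll, had 0 of 14 past 2-fold and a median of 0.11. Within that list BomBc2 stood at 264.5 RPKM at day 32 and 162.3 RPKM at day 26, and Dso1 at 65.5 and 110.1 RPKM, which is in opposite directions. The 17 genes of the Imd and Toll pathways themselves had 0 past 2-fold and a median of 0.15. The largest differences among them were those of nec, a serpin gene that restrains Toll activation, at 39.8 RPKM at day 32 and 23.3 RPKM at day 26 (log2 0.77), and of the adaptor gene imd, at 12.4 and 8.46 RPKM (log2 0.55). The JAK-STAT and Turandot list had 0 of 7 past 2-fold, with TotA, a stress-induced secreted protein gene, at 242.1 RPKM at day 32 and 170.7 RPKM at day 26.

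Peptidoglycan recognition genes had ratios on the same side as the antimicrobial peptides, at smaller size. All 10 with more than 3 reads had a ratio above 0 and 9 were above the median of all genes (median 0.52, 0.43 with TMM factors), and 1 of the 8 with at least 2 RPKM was higher past 2-fold. That gene was PGRP-SB1, which encodes a peptidoglycan-cleaving enzyme, with 133.9 RPKM at day 32 and 40.8 RPKM at day 26 (3187 and 728 reads, 3.28-fold, interval of the log2 ratio 1.60 to 1.83). PGRP-SD, which encodes a sensor, had 60.0 RPKM at day 32 and 34.4 RPKM at day 26 (log2 0.80). Listericin, an antibacterial peptide gene outside the list, stood at 21.1 RPKM at day 32 and 6.67 RPKM at day 26 (log2 1.66, interval 1.32 to 2.02). Across days 2, 8, 14, 20, 26, 32 and 38 Listericin held 15.9, 6.37, 13.5, 16.4, 6.67, 21.1 and 12.5 RPKM, without the peak at day 20 that the diptericin genes had. SPH93, a serine protease homolog gene named after its values were seen, had 8.10 RPKM at day 32 and 1.10 RPKM at day 26 (491 and 50 reads, 7.37-fold). Its level in control thoraces at day 2 was 146 RPKM.

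**Figure D2:**
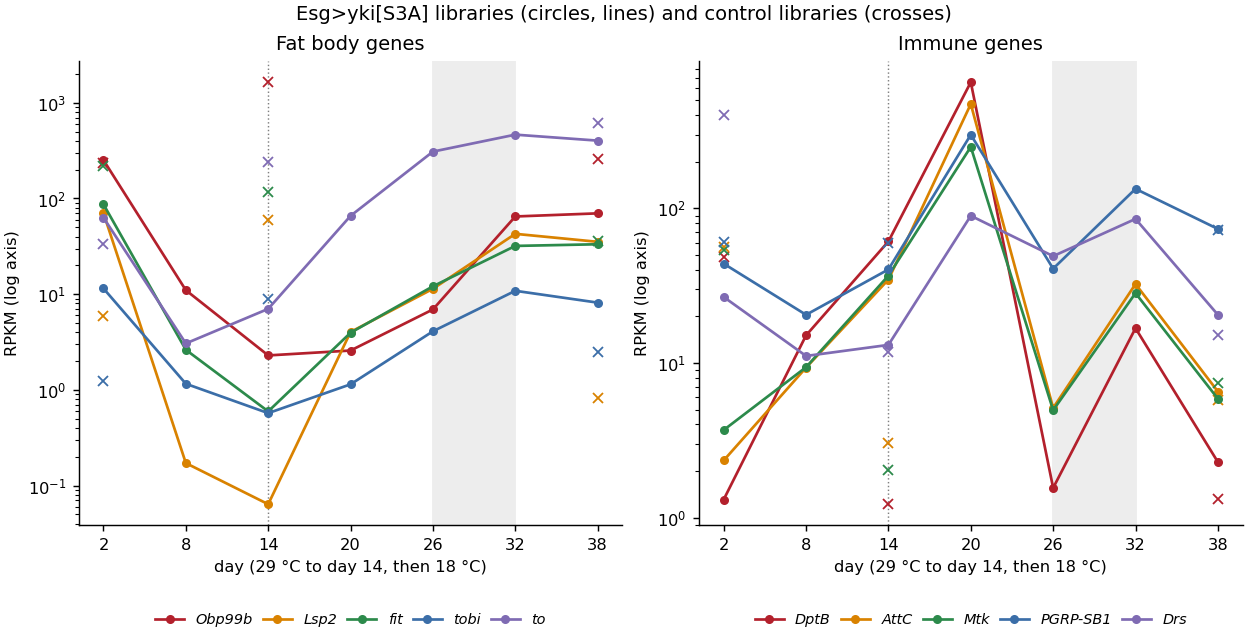
Levels in RPKM (log axis) of 5 fat body genes (left) and 5 immune genes (right) by day, with Esg>yki[S3A] libraries as circles joined by lines, control libraries as crosses, a dotted line at the move from 29 °C to 18 °C at day 14 and a gray band over days 26 to 32. The fat body genes are higher at day 32 than at day 26 (Obp99b 64.9 and 6.93 RPKM) and stay near that level at day 38, whereas the immune genes peak at day 20, are lower at day 26 and have a smaller second peak at day 32 (DptB 16.8 and 1.55 RPKM).

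A further 3 genes, of unknown or less known function, were among the 12 highest ratios with at least 10 RPKM. CG30098 had 10.97 RPKM at day 32 and 3.32 RPKM at day 26 (log2 1.72), CG11550 had 13.5 and 4.67 RPKM (log2 1.53), and CG6428 had 11.6 and 4.50 RPKM (log2 1.36). All 3 remained above their day 26 level at day 38, at 8.97, 6.71 and 18.6 RPKM. A list of 4 peptide genes of the brain's insulin-producing cells, added after the data were seen, had 2 members that reached 2 RPKM. Both were higher, but both reached 2 RPKM only at day 32, so the minimum level favored that direction. Ilp2, which encodes an insulin-like peptide, had 104 reads at day 32 and 34 reads at day 26 (4.06 and 1.77 RPKM, log2 1.20, interval 0.63 to 1.80). Dsk, which encodes the satiety peptide drosulfakinin made by the same cells, had 53 and 12 reads (2.44 and 0.736 RPKM, log2 1.73, interval 0.81 to 2.77). At day 38 Ilp2 stood at 1.63 RPKM (16 reads), under its day 26 level, and Dsk at 2.77 RPKM (23 reads), above its day 26 level. The other members had very few reads, 15 at day 32 and 5 at day 26 for Ilp3 (interval of the log2 ratio -0.36 to 2.98) and 6 and 5 for Ilp5 (log2 -0.15). These cells lie in the brain, which the thorax does not hold.

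Muscle genes were nearly level. Of 24 sarcomere genes 0 passed 2-fold, and the list's median log2 ratio was -0.02 (-0.10 with TMM factors). Mhc, the muscle myosin heavy chain gene, stood at 654.1 RPKM at day 32 and 603.1 RPKM at day 26 (log2 0.12). The largest difference in the list was that of Act88F, the actin gene of the indirect flight muscles, with 1230 RPKM at day 32 and 664.4 RPKM at day 26 (1.85-fold, log2 0.89). Act88F varied widely among the Esg>yki[S3A] libraries, with 562.9, 1876, 194, 286.5, 664.4, 1230 and 1822 RPKM at days 2, 8, 14, 20, 26, 32 and 38. TpnC4, the flight muscle troponin C gene, had 663.9 RPKM at day 32 and 500.5 RPKM at day 26 (log2 0.41). Myofilin (Mf), a thick filament protein gene, had 312.2 and 389 RPKM (log2 -0.32), the lowest ratio of the list. The 10 detected genes of muscle calcium handling had a median of -0.03 and 0 past 2-fold. Among them the calcium channel gene Ca-alpha1D had 28.9 RPKM at day 32 and 21.3 RPKM at day 26 (log2 0.44), and RyR, the calcium release channel gene, had 31.3 and 26.8 RPKM (log2 0.22).

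Energy metabolism was as level as the sarcomere. Of 11 glycolysis genes 0 passed 2-fold (median -0.03, -0.11 with TMM factors), and their summed level was 2552 RPKM at day 32 and 2673 RPKM at day 26. Pgi, the second enzyme of the pathway, had the lowest ratio, with 346.8 RPKM at day 32 and 466.7 RPKM at day 26 (log2 -0.43). Hex-A, the muscle hexokinase gene, had the highest, with 30.8 and 24.9 RPKM (log2 0.31). The summed glycolysis level at days 2, 8, 14, 20, 26, 32 and 38 was 7317, 1985, 867.5, 1431, 2673, 2552 and 2568 RPKM, so that its increase from the day 14 low lay before day 26 and the last 3 libraries differed little. The 15 genes of the TCA cycle had a median of 0.12, with SdhB, a succinate dehydrogenase subunit gene, at 248.1 RPKM at day 32 and 163.4 RPKM at day 26 (log2 0.60). Nuclear genes of complex I (36 detected, median 0.06) and of complexes III and IV and the ATP synthase (41 detected, 0.09), the mitochondrial ribosome (72, 0.12) and glycogen and trehalose metabolism (9, 0.06) had 0 past 2-fold. ND-75, a complex I subunit gene, had the highest ratio of its list at 239.8 RPKM at day 32 and 165.4 RPKM at day 26 (log2 0.54). ATPsynC, the gene of the membrane ring subunit of the ATP synthase, had 664.8 and 504.4 RPKM (log2 0.40), and the cytochrome oxidase subunit gene COX6B had 279.1 and 371.8 RPKM (log2 -0.41). Tps1, which makes the blood sugar trehalose, had 316.4 RPKM at day 32 and 239.9 RPKM at day 26 (log2 0.40), while the glycogen phosphorylase gene GlyP had 203.5 and 246 RPKM (log2 -0.27). The median over the 32 detected genes of the mitochondrial genome was -0.18, and of the 31 with at least 2 RPKM 1 was higher and 4 were lower past 2-fold, all of them for transfer RNAs.

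Genes of the translation machinery lay mostly above the median of all genes, by less than 2-fold. Of 88 detected cytosolic ribosomal protein genes, 83 had a ratio above 0 and 76 were above the median of all genes, and the list's median was 0.40. Of all 7867 protein-coding genes compared, 5585 had a ratio above 0. With TMM factors 78 remained above 0 and the median was 0.31. Only RpS10b passed 2-fold with at least 2 RPKM, at 75.5 RPKM at day 32 and 36.9 RPKM at day 26 (log2 1.03, 0.95 with TMM factors). RpL8 had 144.5 and 80.1 RPKM (log2 0.85), while RpS29 had 325.7 and 435 RPKM (log2 -0.42), the lowest of the list. The summed level of the list at days 14, 20, 26, 32 and 38 was 24250, 38340, 39990, 50840 and 33100 RPKM, and the day 32 library held the largest sum of all 10 libraries. Of 32 aminoacyl tRNA synthetase genes, whose products load amino acids onto tRNAs, 28 were above 0 and 25 above the median of all genes, with a median of 0.34 and 0 past 2-fold. LysRS had the highest ratio, with 17.7 RPKM at day 32 and 10.8 RPKM at day 26 (log2 0.71). GluProRS, a double synthetase gene that the list did not hold and that was named after its values were seen, had 37.7 and 17.4 RPKM (log2 1.12). Among lists added after the data were seen, all 8 cytosolic chaperonin genes were above 0 and 7 above the median of all genes (median 0.35), and of 48 detected genes of translation initiation and elongation factors 39 were above 0 and 30 above the median of all genes (median 0.19). CCT3, a chaperonin subunit gene, had 43.6 RPKM at day 32 and 27.5 RPKM at day 26 (log2 0.66), and the initiation factor gene eIF3g1 had 171.9 and 90.1 RPKM (log2 0.93). The ribosomal median was 0.06 over the 3 genes with up to 500 bases of exon and 0.31 over the 19 genes of 500 to 700 bases. It was 0.42 over the 27 genes of 700 to 1000 bases and also 0.42 over the 35 genes of more than 1000 bases.

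**Figure D3:**
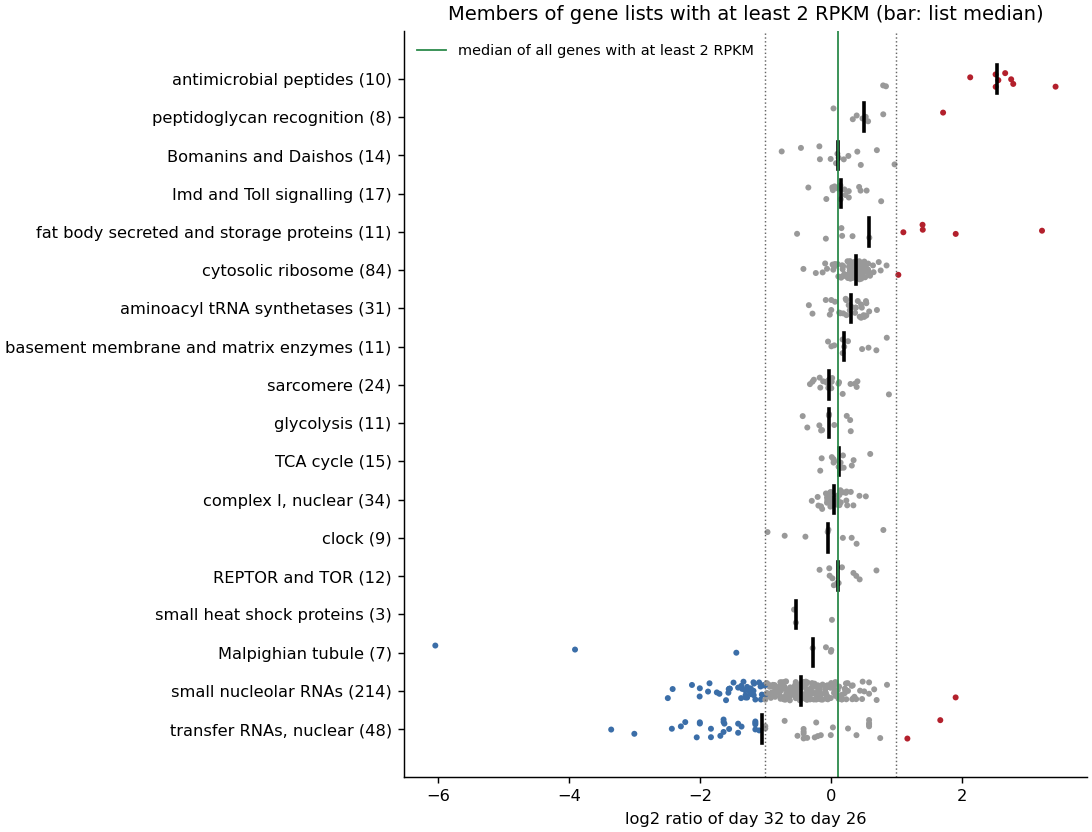
Log2 ratios of day 32 to day 26 for the members of 18 gene lists with at least 2 RPKM (number in parentheses), with points past 2-fold higher in red and lower in blue, a black bar at each list's median over the members shown and a green line at the median of all genes, 0.12. Antimicrobial peptides lie farthest to the right, the cytosolic ribosome is a narrow block to the right of the green line, and small nucleolar RNAs, transfer RNAs and part of the Malpighian tubule list lie to the left.

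The protein-coding genes lower at day 32 were few and extreme. Of the 46, 38 were more than 4-fold lower, and these 38 summed to 10.1 RPKM at day 32 and 271 RPKM at day 26. Alp2, an alkaline phosphatase gene, had 3 reads at day 32 and 509 reads at day 26 (0.0446 and 10.1 RPKM, log2 -7.82, interval -10.1 to -6.27). CG13309 had 3 and 270 reads (log2 -6.91, interval -9.19 to -5.34), CG15155 had 6 and 368 (log2 -6.35) and CG9259 had 12 and 686 (log2 -6.25). The mucin gene Muc68D had 0.147 RPKM at day 32 and 10.9 RPKM at day 26 (log2 -6.21), and Mur18B, a mucin-related gene, had 0.113 and 8.55 RPKM (log2 -6.24). CG33258 had 0.842 and 32.03 RPKM (log2 -5.25), and CG14645, whose exons overlap a gene on the opposite strand, had 1.22 and 36.1 RPKM (log2 -4.89).

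Several of these genes are known for their place in the Malpighian tubule, the fly's renal organ, or in the gut. Uro, the urate oxidase gene, which is expressed in the tubule, had 2 reads at day 32 and 148 reads at day 26 (interval of the log2 ratio -9.68 to -4.75). NaPi-T, a sodium-dependent phosphate transporter gene, had 0.325 RPKM at day 32 and 4.87 RPKM at day 26 (log2 -3.91), and the potassium channel gene Irk3 had 0.974 and 2.65 RPKM (log2 -1.44). In a Malpighian tubule list added after the data were seen, these 3 of 7 genes with at least 2 RPKM were lower and 0 were higher. All 3 reached 2 RPKM only at day 26, where they were higher, so this count is no independent support. The median log2 ratio was -1.94 over the 12 detected members and -0.28 over the 7. The other members with at least 2 RPKM were level: Ncc69 (log2 0.01), tsh (0.00), Oatp58Dc (-0.07) and Alp4 (-0.28). The summed level of the whole list was 59.7 RPKM at day 32 and 77.7 RPKM at day 26, and it ranged from 24.1 to 61.9 RPKM in the other libraries. Also among the 38 were the transporter genes salt (4 and 276 reads) and Smvt (7 and 232 reads), the cytochrome P450 gene Cyp6a18 (2 and 249 reads) and the glutathione S-transferase gene GstE10 (11 and 99 reads).

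The 38 genes were chosen for their day 26 and day 32 levels, so that only the other libraries add to the description. The sum over the Esg>yki[S3A] libraries at days 2, 8, 14, 20, 26, 32 and 38 was 213.8, 24.0, 11.3, 10.5, 271, 10.1 and 208.8 RPKM, and over the control libraries at days 2, 14 and 38 it was 26.7, 211 and 15.95 RPKM. The Esg>yki[S3A] day 2 and day 38 libraries and the control day 14 library thus held sums near that of day 26. Of these sums, only that of day 2 was spread over most of the genes. The median gene stood at 4.61 RPKM at day 26 and 3.44 RPKM at day 2. In the Esg>yki[S3A] day 38 library the median was 0.192 RPKM, with 11 genes at 1 RPKM or more. In the control day 14 library it was 0.2 RPKM, with 9 such genes. At day 2, 33 of the 38 had at least 1 RPKM in Esg>yki[S3A] thoraces. Apart from day 26, the highest library was Esg>yki[S3A] day 2 for 30 of the 38, Esg>yki[S3A] day 38 for 4, control day 14 for 2 and Esg>yki[S3A] day 8 for 2. CG14645, Muc68D, CG34324, CG3906 and, at a lower level, CG11672 made a subset that was also high at day 38 in Esg>yki[S3A] flies and at day 14 in controls. CG34220 followed, at 2.47 RPKM in the Esg>yki[S3A] library at day 38 and 0.809 RPKM in the control library at day 14. CG14645 held 125.3 RPKM in the Esg>yki[S3A] library and 143.7 RPKM in the control library, and Muc68D held 21.2 and 20.6 RPKM. The remaining 8 of the 46 lower genes were between 2-fold and 4-fold lower. How much tubule and gut tissue each dissected thorax held is not given in the sources used here, and its part in this result was not tested. The list of digestive enzymes and enterocyte markers summed to 21.7 RPKM at day 32 and 19.8 RPKM at day 26, with 0 of the 3 members that reached 2 RPKM past 2-fold. Of its 10 members with more than 3 reads, 5 had a ratio above 0 and 5 below, with a median of -0.03. The lowest ratios rested on few reads. They were those of the digestive protease genes Jon65Aiii (0 reads at day 32 and 14 at day 26), Jon65Aiv (2 and 14 reads) and alphaTry (1 and 11 reads). These 3 protease genes stood higher in the Esg>yki[S3A] day 2 library, at 3.54, 8.50 and 16.5 RPKM. They were also higher in the Esg>yki[S3A] day 38 library, at 3.36, 2.88 and 4.38 RPKM. In that library Uro had 0 reads and NaPi-T had 0.309 RPKM. The progenitor gene esg, whose promoter drives the tumor, had 28 reads at day 32 and 29 reads at day 26.

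**Figure D4:**
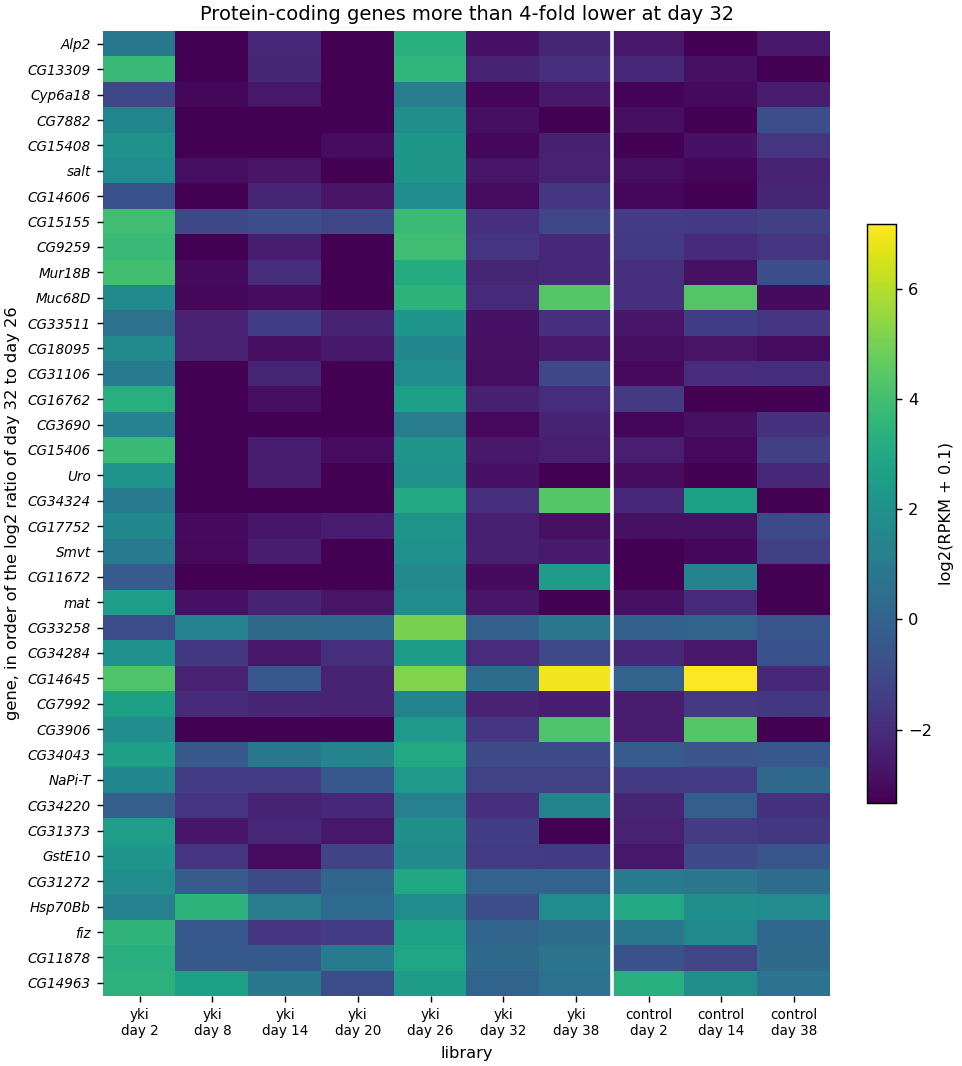
Levels of the 38 protein-coding genes more than 4-fold lower at day 32 than at day 26, as log2(RPKM + 0.1) by color, in the 7 Esg>yki[S3A] and 3 control libraries, with genes in order of their log2 ratio. The day 26 column is bright from top to bottom and resembles the day 2 column for most genes, though not for CG33258. Days 8, 14, 20 and 32 are mostly dark, with Hsp70Bb and CG14963 bright at day 8. CG14645, Muc68D, CG34324, CG3906 and CG11672 are also bright at day 38 and in the control at day 14.

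Small noncoding RNA genes made up 76 of the 127 lower genes. Small nucleolar RNAs, which guide the chemical modification of ribosomal RNA, had 41 of 214 lower and 1 higher, with a median log2 ratio of -0.45. They took 0.382% of the reads at day 32 and 0.71% at day 26. At days 2, 8, 14, 20, 26, 32 and 38 this share was 0.247%, 0.637%, 0.527%, 1.12%, 0.71%, 0.382% and 1.06%, so that it was low at day 32 between 2 higher values. Among the abundant members, snoRNA:U3:9B, a U3 RNA that acts in ribosomal RNA cleavage, had 291.5 RPKM at day 32 and 1267 RPKM at day 26 (log2 -2.12), and snoRNA:Psi28S-3308 had 464.3 and 1860 RPKM (log2 -2.0). The highest ratio, of snoRNA:Psi18S-640g, rested on 15 reads at day 32 and 3 reads at day 26. Transfer RNA genes had 24 of 48 lower and 2 higher. An example is tRNA:Tyr-GTA-1-6, with 59 reads at day 32 and 238 reads at day 26 (log2 -2.43), which is 1 of several near-identical copies. The small Cajal body RNAs, guides for spliceosomal RNAs, had 6 of 14 lower (median -0.79), with scaRNA:MeU2-C41 at 147.4 RPKM at day 32 and 528.1 RPKM at day 26. The spliceosomal RNAs had 1 of 12 lower. The tRNA, Cajal body and spliceosomal lists were added after the data were seen.

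The ratio went with the length of the gene. Genes with up to 100 bases of exon had a median log2 ratio of -0.61 (148 genes), those of 100 to 150 bases -0.41 (121 genes) and those of 150 to 300 bases -0.17 (71 genes). From 300 bases upward the medians lay between 0.08 and 0.16. Within the 150 to 300 base class, 37 small RNA genes had a median of -0.46 and 16 protein-coding genes had 0.11, so that in this class the difference went with the kind of gene. Reads were 75 bases long, and RNA as short as these genes is kept in part by library preparation. Its retention in each library was not measured, and its part in these ratios was not tested.

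**Figure D5:**
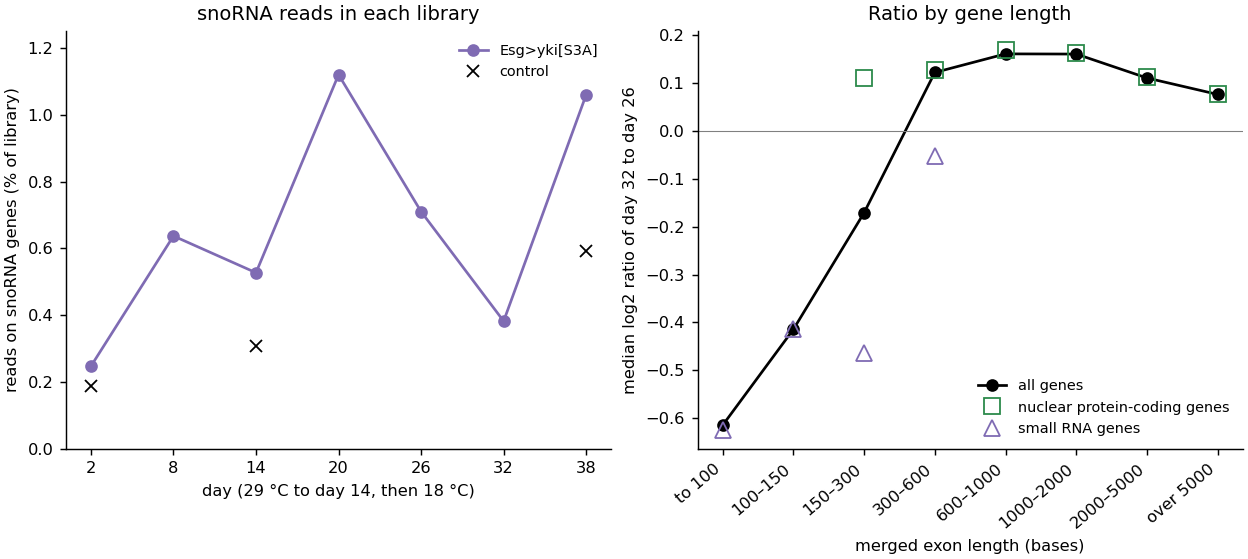
The left panel gives the share of library reads on snoRNA genes (%) by day in Esg>yki[S3A] libraries (circles) and control libraries (crosses), 0.382% at day 32 and 0.71% at day 26. The right panel gives the median log2 ratio of day 32 to day 26 by merged exon length, for all genes, nuclear protein-coding genes and small RNA genes, and runs from -0.61 in the shortest class to between 0.08 and 0.16 from 300 bases upward.

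Other genes among the 12 lowest ratios with at least 10 RPKM were near the 2-fold line. CG13947 had 24.0 RPKM at day 32 and 53.6 RPKM at day 26 (log2 -1.16), CG43680 had 41.8 and 89.8 RPKM (log2 -1.10), the noncoding gene lncRNA:CR43604 had 41.4 and 85.4 RPKM (log2 -1.04), and CG18473 had 7.76 and 14.2 RPKM (log2 -0.87). The clock gene tim was the other, with 26.6 RPKM at day 32 and 52.0 RPKM at day 26 (log2 -0.97, and -1.05 with TMM factors, where it passes 2-fold). Of 9 clock genes with at least 2 RPKM, 0 passed 2-fold with the library total and the list's median was -0.04. The clock gene vri, which like tim is induced by Clock and Cycle, had 53.2 RPKM at day 32 and 86.6 RPKM at day 26 (log2 -0.70), whereas Clk itself, whose RNA peaks at the opposite time of day, had 6.61 and 3.79 RPKM (log2 0.80). The RNA of per, the partner of tim, was level at 4.42 and 4.56 RPKM (log2 -0.05). Of the 10 detected clock genes, 4 had a ratio above 0 and 6 below. The hour of dissection is not given in the sources used here, and its part in these ratios was not tested.

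The heat shock gene Hsp70Bb had 43 reads at day 32 and 223 reads at day 26 (0.480 and 3.32 RPKM, log2 -2.79, interval -3.30 to -2.31). It is 1 of several near-identical Hsp70 genes, so its own reads are uncertain. It was the only one of 9 genes for Hsp70, Hsp90 and their cochaperones past 2-fold. Of 3 small heat shock protein genes with at least 2 RPKM 0 passed 2-fold, and the median over the 6 detected was -0.49. Hsp23 and Hsp26 had log2 ratios of -0.56 and -0.53, and the mitochondrial chaperonin gene Hsp60A had 91.2 RPKM at day 32 and 66.5 RPKM at day 26 (log2 0.46).

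The genes of TOR and insulin signaling were nearly level. REPTOR, a transcription factor held in check by the growth kinase TORC1, had 34.4 RPKM at day 32 and 35.0 RPKM at day 26 (log2 -0.02, interval -0.07 to 0.02). At days 2, 8, 14, 20, 26, 32 and 38 it stood at 15.7, 40.02, 65.5, 62.4, 35.0, 34.4 and 34.1 RPKM, so that the last 3 libraries agree within 1 RPKM. Of 12 genes of the REPTOR and TOR list with at least 2 RPKM 0 passed 2-fold (median 0.10), and the largest ratio was that of Tsc1, an inhibitor of TORC1, at 5.01 RPKM at day 32 and 3.09 RPKM at day 26 (log2 0.70). Tor itself and raptor, a subunit of TORC1, had log2 ratios of 0.35 and 0.44, and the other members lay between -0.17 (RhoGAP68F) and 0.39 (CG42390). In the insulin and FoxO list 1 of 15 genes was past 2-fold, which was Ilp2. The insulin antagonist gene ImpL2 had 3.65 RPKM at day 32 and 3.48 RPKM at day 26 (log2 0.07), and the translation inhibitor and FoxO target Thor had 13.6 and 10.4 RPKM (log2 0.40). CCHa2, a fat body peptide hormone gene that responds to nutrients, had 42.2 and 25.8 RPKM (log2 0.71).

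Most of the remaining lists also had 0 genes past 2-fold in either direction: the proteasome (31 genes with at least 2 RPKM), autophagy (19), the unfolded protein and integrated stress response (12), redox enzymes (12), mitochondrial dynamics and quality control (10), the ecdysone response (9), nutrient hormones and sugar sensing (9), and the Hippo pathway with Yorkie targets (10, median 0.06). The proteasome list held Prosalpha5, a core subunit gene, at 130.9 RPKM at day 32 and 237.6 RPKM at day 26 (log2 -0.86), against a list median of 0.17. Atg3, which acts in autophagosome formation, had 15.7 and 9.40 RPKM (log2 0.74), the endoplasmic reticulum chaperone gene Gp93 had 44.4 and 28.9 RPKM (log2 0.62), and Gclm, a glutathione synthesis gene, had 62.5 and 43.0 RPKM (log2 0.54). Of 27 glutathione S-transferase genes, 1 was higher (GstD5, 67 and 20 reads, log2 1.33) and 1 was lower (GstE10), with a median of 0.38. Of 61 cytochrome P450 genes 0 were higher and 1 was lower, which was Cyp6a18 (median 0.16). Of 13 cuticle protein genes 1 was higher, Cpr47Ef, at 3.95 RPKM at day 32 and 1.92 RPKM at day 26. Basement membrane and matrix enzyme genes had 0 of 11 past 2-fold, and of 12 detected members 11 were above 0 and 9 above the median of all genes (median 0.23). Timp, an inhibitor of matrix proteases, had 70.3 RPKM at day 32 and 38.9 RPKM at day 26 (log2 0.86), the collagen gene Col4a1 had 14.6 and 8.99 RPKM (log2 0.70), and SPARC, a collagen-binding protein gene, had 297.7 and 199.6 RPKM (log2 0.58).

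Of the markers of the other cell types checked, 0 of those that reached 2 RPKM passed 2-fold. Blood cell markers summed to 243.5 RPKM at day 32 and 226.2 RPKM at day 26 (0 of 8 past 2-fold, Hml log2 0.17), neuron markers to 87.4 and 88.4 RPKM (0 of 7), glia markers to 447.6 and 494.6 RPKM (0 of 5), and trachea markers to 20.4 and 23.4 RPKM (0 of 3). Gut progenitor and enteroendocrine markers summed to 17.4 and 15.3 RPKM (0 of 4). At lower levels, the peptide gene NPF of that list had 40 reads at day 32 and 9 reads at day 26 (log2 1.74, interval 0.67 to 2.97). Testis markers summed to 25.1 RPKM at day 32 and 24.3 RPKM at day 26 (0 of 1), of which bol held 23.61 and 22.98 RPKM. The testis genes aly, dj, ocn, Mst84Da, Mst84Db and Mst98Ca had 0 reads in both libraries. Male accessory gland and ejaculatory bulb markers summed to 1160 and 877.4 RPKM (0 of 2). Of this, EbpIII, an ejaculatory bulb protein gene, held 788.3 and 536.7 RPKM, and Est-6 held 370.7 and 340.3 RPKM. The accessory gland genes SP and Acp26Aa had 0 reads in both libraries, and no other member had more than 6. These sums are therefore not read as RNA of testis or accessory gland. Flight muscle markers summed to 5569 RPKM at day 32 and 5066 RPKM at day 26 (0 of 8).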

How the data were processed

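Per the methods of the study, the authors depleted ribosomal RNA, sequenced each library as 4 pools, aligned reads with STAR 2.7.2b to FlyBase release 6.30 and named DESeq2 1.34.0 for differential expression. The submitters' processing notes name a mouse build, which the fly gene identifiers in the files contradict. The authors deposited, for every gene, an estimated count in steps of 0.25. Each was multiplied by 4, on the assumption that it is a mean over 4 pools, which gave whole reads. The treatment of strand and of reads matching several genes is not given in the sources used here. Reads were divided by the library total on genes and by merged exon length (Ensembl release 115, Release 6 assembly; 99.7% of identifiers matched; 56 genes without a length hold 0.0869% of day 32 and 0.0716% of day 26 reads) to give RPKM. A row for unknown identifiers was left out.

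Log2 ratios had no pseudocount, with reads under 3 raised to 3. A gene was called past 2-fold if it reached 2 RPKM in either library. With 1 library per condition no test was possible. List medians cover members with more than 3 reads in the larger library. Intervals are 95% exact Clopper-Pearson and rest on the assumption about pools. Named genes are the 12 protein-coding or long noncoding genes in each direction with the largest ratio among those with at least 10 RPKM, members of each list past 2-fold (or, where fewer than 2, the 2 with the largest change), cell type markers, and REPTOR with its list. Exceptions are stated, and long lists are shown by a part of these genes. The members and the 38 pathway and 12 marker lists were chosen with earlier results of these data known, and 7 lists were added after seeing the data; 2 list entries matched no gene. Alternatives were the scalings of edgeR 4.0.16 (TMM) and DESeq2 1.42.0 in R 4.3.3, reads on nuclear protein-coding genes, pseudocounts of 0.1 and 1 RPKM, other minimums and cut-offs, and neighboring libraries. The scripts for calling genes were tested on simulated data.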

Additional observations from a re-analysis of the deposited data

How the results depend on the processing

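No paired analysis was possible because each condition is 1 library. Against 73 genes higher and 127 lower at day 32, the counts were 329 and 397 with no minimum level, 31 and 61 with at least 10 RPKM, 439 and 248 past 1.5-fold, 12 and 49 past 4-fold, and 27 and 71 where the whole interval had to pass 2-fold. With a pseudocount of 1 RPKM 39 were higher, and with scaling by reads on nuclear protein-coding genes 45. With day 20 in place of day 26 the counts were 383 higher and 322 lower, and with day 38 in place of day 32 they were 350 and 205. Among nuclear protein-coding genes only, a restriction made after seeing the data, 46 were lower. Counts under TMM and DESeq2 scaling, a pseudocount of 0.1 RPKM and the other values of these alternatives stayed within 1.5 times. Of 57 list medians, 16 changed sign under some alternative, and none of these exceeded 0.18 in size. Of 215 named or listed genes, 15 changed sign, the largest of them at 0.12. No replicate exists, so the spread between flies or between library preparations is unknown, and genes with few reads have wide counting intervals, as Dsk with 53 reads at day 32 and 12 at day 26.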

Other observations

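Some genes outside the lists also differed between the day 32 and day 26 libraries and were named after their values were seen. The Piwi protein gene piwi, which silences transposons, stood at 277.4 RPKM at day 32 and 155.8 RPKM at day 26 (log2 0.83). Across the Esg>yki[S3A] libraries at days 2, 8, 14, 20, 26, 32 and 38 it held 24.5, 48.9, 216.3, 176.6, 155.8, 277.4 and 334.5 RPKM, and the control libraries at days 2, 14 and 38 held 14.6, 117.2 and 301.7 RPKM. RnrL, the large subunit gene of ribonucleotide reductase, had 12.2 RPKM at day 32 and 5.58 RPKM at day 26 (log2 1.13), with 14.8 RPKM at day 38. The mitochondrial transfer RNA gene mt:tRNA:Trp-TCA was among the 4 small RNA genes higher past 2-fold, of 303, with 335 reads at day 32 and 36 reads at day 26 (log2 2.80, interval 2.31 to 3.34).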
